A study of Mus musculus with 8 samples.

Results

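The genes that make cholesterol and fatty acids were examined in mouse intestinal organoids with and without overexpression of MG53. The list held 35 genes chosen by name and role, namely 18 enzymes of the sterol pathway, 5 regulators of sterol synthesis or transport and 12 enzymes of fatty acid synthesis, elongation or desaturation. Of these, 32 had a value under their own Ensembl identifier, out of 13230 genes in the tables. The rule that chose them holds no cutoff on a measured value, but the list was made with earlier results of these data known. The counts of members below therefore describe the list and are no independent test of it. All 32 passed the filter on low values, a mean of at least 0.5 FPKM over the 8 samples.

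The samples were 4 WT and 4 MG53-TG organoid cultures, labelled wt and mg53-tg and sourced as intestinal organoid. MG53-TG mice overexpress the E3 ligase MG53, encoded by Trim72, throughout the body, and the WT mice were their littermates. Per the study's methods, crypts of the small intestine were grown in Matrigel with IntestiCult medium. The text of the study also names organoids of MG53;Lgr5 and Lgr5 mice, a cross that the labels do not give. The promoter of the transgene and the age and sex of the mice are not given in the sources used here. Nothing in the labels ties the samples to separate animals, so the p-values measure the spread between these samples only, which may be technical. Trim72 was absent from the tables of all 4 WT samples, and its level in MG53-TG samples 1 to 4 was 16.4, 27.4, 31.9 and 36.5 FPKM.

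Cholesterol is built from acetyl-CoA through the mevalonate pathway, in which acetyl units are joined, turned into mevalonate and converted to isoprenoid units that are condensed to squalene. Squalene is then oxidised, cyclised to lanosterol and trimmed to cholesterol by a series of enzymes of the endoplasmic reticulum. Fatty acids are made from the same acetyl-CoA by carboxylation to malonyl-CoA and repeated condensation, followed by elongation and desaturation. Many genes of both branches are known targets of the SREBP transcription factors, which SCAP escorts to the Golgi for cleavage when sterols are low and which INSIG proteins hold back when sterols are high. The intestinal epithelium is an active site of sterol synthesis.

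The values are FPKM, fragment numbers scaled to transcript length and to library size, which allow levels to be compared between genes. The authors' tables list transcript events such as a transcription start or end, and the value of a gene was the sum over its start events or, if that had the higher mean, over its end events. End events gave the values of Acat2, Fdft1, Acly, Acaca and Scd1, and start events those of the other members with a value. Fold changes are differences of log2(FPKM + 1), MG53-TG against WT, tested with limma over 10349 genes with Benjamini-Hochberg adjustment at 0.05, and they understate changes of low genes. Across genes, Pearson's r of log2(FPKM + 1) was 0.980 to 0.983 between WT samples. It was 0.982 between MG53-TG samples 1 and 2, 0.979 between samples 3 and 4 and 0.958 to 0.968 between these pairs, so the MG53-TG samples were less alike. The depth of the libraries is unknown, since no read counts were used. The FPKM summed over start events were 269837 to 273797 in WT and 269094 to 284330 in MG53-TG samples. Over all genes tested, the log2 fold change had a median of -0.17, which rose by 0.16 with median-of-ratios scaling and by 0.12 with quantile normalization.

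Most genes of both branches were lower in MG53-TG organoids. Of the 32 members tested, 22 were lower and 1 was higher, beside 29.3% of all genes tested that were lower and 15.5% that were higher. Among the sterol enzymes 12 of 16 were lower and none was higher, with a median log2 fold change of -0.90. Among the sterol regulators 3 of 5 were lower, with a median of -0.66. Among the fatty acid enzymes 7 of 11 were lower and 1, Me1, was higher, with a median of -0.83. The 4 sterol enzymes, 2 regulators and 3 fatty acid enzymes left did not pass the threshold. In 23 members every MG53-TG sample was below every WT sample, as in 29.2% of all genes tested. In 2 members, Me1 and Hsd17b7, all MG53-TG samples exceeded all WT samples, as in 15.6% of all genes tested. These 25 members had an exact permutation p of 0.0286 (two-sided), the smallest that 70 relabellings of 4 against 4 samples can give. With median-of-ratios scaling 20 members were lower and 2 higher, and with quantile normalization 23 were lower and 2 higher. Leaving out MG53-TG samples 3 and 4, or samples 1 and 2, a choice made after seeing the data, gave 23 lower and 1 higher in both cases. The fatty acid median was -0.91 without samples 3 and 4 and -1.30 without samples 1 and 2.

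**Figure D1:**
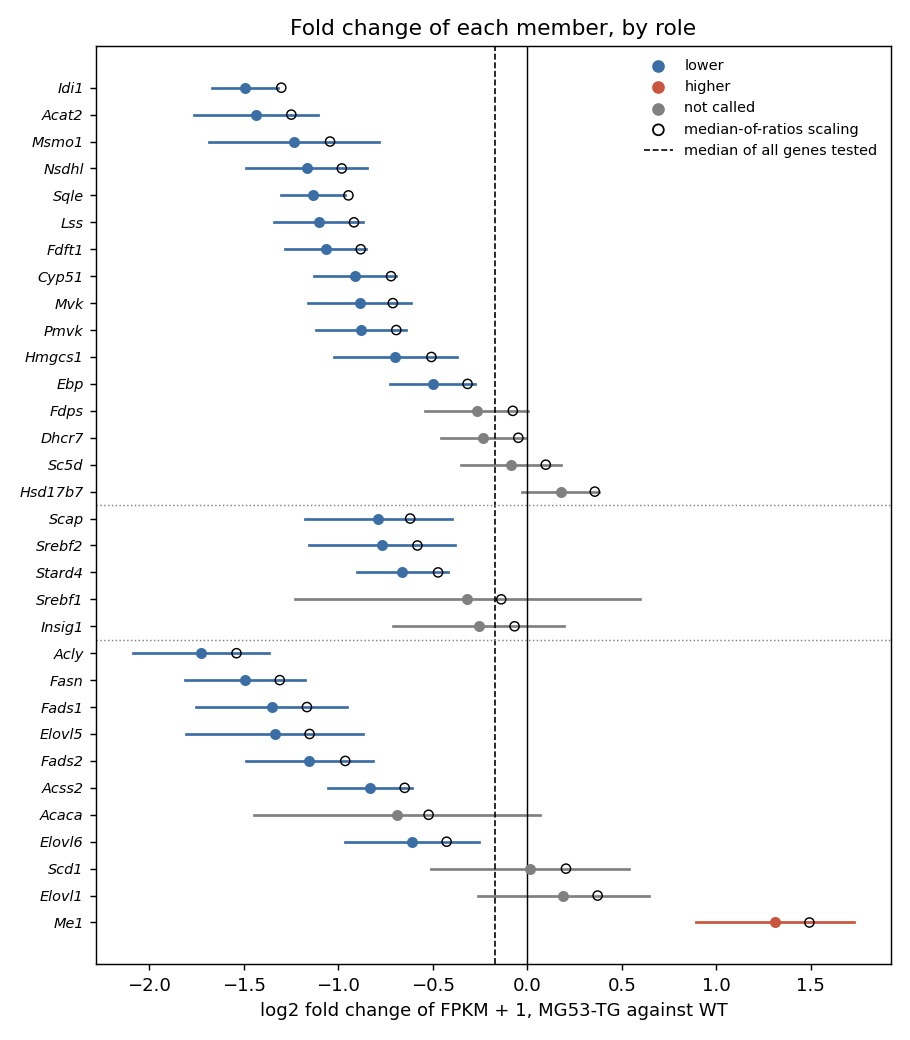
Log2 fold change of FPKM + 1, MG53-TG against WT, for each of 32 members in blocks of sterol enzymes, sterol regulators and fatty acid enzymes from top to bottom. Filled points and bars are the estimates with 95% confidence intervals, coloured by call, open circles are estimates after median-of-ratios scaling, and the dashed line is the median of all genes tested, -0.17. Idi1 and Acly lie farthest to the left in their blocks at -1.49 and -1.73, and Me1 alone is coloured as higher, at 1.31.

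The promoters of these genes were read from RefSeq (GRCm38.p6) as windows of 300 bases, 250 before and 50 after the annotated start, in the direction of the gene. Windows were found for 28 members. None was found for Fdps, Fdft1, Sqle, Stard4, Scd1, Scd2 and Fads1. Both strands were searched for 4 motifs, a form of the sterol regulatory element bound by SREBP (TCACNCCAC), the CCAAT box bound by NF-Y (CCAAT), the GC box bound by Sp1 (GGGCGG) and an E-box form that SREBP also binds (TCANNTGA). The CCAAT box was in 20 of 28 member windows (71.4%) and in 37.4% of all 32851 windows. The GC box was in 23 member windows (82.1%) and in 35.7% of all windows. The sterol element was in 1 member window, that of Hmgcs1, and in 1.24% of all windows. The E-box form was in none of the member windows and in 8.39% of all windows. All windows cover 27025 genes, whether or not they had a value in these organoids, and some genes have more than 1. Each member gave only the window nearest its main start. Shares among expressed genes alone were not computed, so these differences may not be particular to the members. Among members that were lower, 13 of 18 windows held a CCAAT box, and among those not called 5 of 7 did. A match is a match of letters only, and its absence says only that these letters are not in this window. The window of Acaca lies 15607 bases from the main start event of the gene in these organoids, and Pmvk also had its main start more than 250 bases away. Tm7sf2 had no start event under its identifier.

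Windows of 5 members are given in full, 5′ to 3′, with every motif match in capitals on either strand (ATTGG is CCAAT and CCGCCC is GGGCGG on the opposite strand). Hmgcs1 is shown as the window with the sterol element, Idi1 and Acly as the sterol enzyme and the fatty acid enzyme with the largest decrease (for Acly by its end events), Hsd17b7 as a sterol enzyme that was not lower, and Me1 as the gene that was higher.
Hmgcs1, chr13:119690101-119690400, plus strand: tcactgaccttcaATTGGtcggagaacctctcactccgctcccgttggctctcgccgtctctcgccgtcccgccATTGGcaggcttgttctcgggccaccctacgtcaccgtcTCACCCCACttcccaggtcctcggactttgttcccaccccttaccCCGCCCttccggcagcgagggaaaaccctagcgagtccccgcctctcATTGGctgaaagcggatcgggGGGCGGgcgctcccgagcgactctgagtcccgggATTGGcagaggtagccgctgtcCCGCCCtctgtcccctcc
Idi1, chr13:8885356-8885655, plus strand: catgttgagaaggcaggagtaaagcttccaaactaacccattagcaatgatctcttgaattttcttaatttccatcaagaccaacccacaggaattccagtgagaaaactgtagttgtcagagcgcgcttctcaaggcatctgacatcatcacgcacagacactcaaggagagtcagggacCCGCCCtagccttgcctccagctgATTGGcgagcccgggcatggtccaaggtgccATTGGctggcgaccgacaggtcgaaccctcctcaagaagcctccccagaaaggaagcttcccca
Hsd17b7, chr1:169969156-169969455, minus strand: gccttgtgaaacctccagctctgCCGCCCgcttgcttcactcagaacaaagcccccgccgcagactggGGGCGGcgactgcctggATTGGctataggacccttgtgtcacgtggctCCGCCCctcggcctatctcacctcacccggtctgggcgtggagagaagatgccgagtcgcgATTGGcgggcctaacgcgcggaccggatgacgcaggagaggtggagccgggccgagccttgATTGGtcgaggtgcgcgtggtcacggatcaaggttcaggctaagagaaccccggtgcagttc
Acly, chr11:100527951-100528250, minus strand: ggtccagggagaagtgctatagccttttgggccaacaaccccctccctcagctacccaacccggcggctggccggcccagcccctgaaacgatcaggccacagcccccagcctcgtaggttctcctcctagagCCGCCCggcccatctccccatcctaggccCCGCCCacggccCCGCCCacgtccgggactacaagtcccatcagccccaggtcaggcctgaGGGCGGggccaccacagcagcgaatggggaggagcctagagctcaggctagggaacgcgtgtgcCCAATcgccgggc
Me1, chr9:86695865-86696164, minus strand: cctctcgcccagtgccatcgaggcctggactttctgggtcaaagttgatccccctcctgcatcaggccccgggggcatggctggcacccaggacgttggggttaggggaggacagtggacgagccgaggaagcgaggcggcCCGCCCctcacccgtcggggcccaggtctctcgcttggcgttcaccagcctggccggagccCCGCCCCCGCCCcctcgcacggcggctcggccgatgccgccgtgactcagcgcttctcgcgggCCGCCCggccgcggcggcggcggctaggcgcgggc
Hmgcs1 held 4 CCAAT boxes, 3 GC boxes and the sterol element, TCACCCCAC, at positions 114 to 122 from the 5′ end of the window. Idi1 held 2 CCAAT boxes and 1 GC box, and Hsd17b7, which was not lower, held 3 of each. Acly held 1 CCAAT box and 4 GC boxes, and Me1 held 4 GC boxes and no CCAAT box. In these windows no motif overlapped another.

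The entry into the sterol pathway was lower from its first step. Acat2, which joins acetyl units to acetoacetyl-CoA in the cytosol, lies on chromosome 17 from 12942890 to 12960747 (GRCm38). It was at 103, 89.4, 95.9 and 102 FPKM in WT samples 1 to 4 and 44.8, 39.6, 30.3 and 29.1 in MG53-TG samples 1 to 4. The groups did not overlap, and the log2 fold change was -1.44 ± 0.14 (SE, adjusted p = 0.000109). Its start event, at lower FPKM, gave -1.34 ± 0.41 (adjusted p = 0.0413). Acat3, a near-identical neighbour whose reads could be split with those of Acat2, was at 4.77 to 9.90 FPKM in WT and 3.98 and 2.02 in MG53-TG samples 1 and 2, with no entry in samples 3 and 4.

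Hmgcs1, the cytosolic HMG-CoA synthase (chromosome 13, 119690379 to 119708260), was among the most abundant members. Its values were 144, 157, 143 and 141 FPKM in WT and 79.1, 70.8, 107 and 108 FPKM in MG53-TG samples 1 to 4. All MG53-TG samples were lower than the WT samples, but samples 3 and 4 were nearer to them than samples 1 and 2. The log2 fold change was -0.70 ± 0.14 (adjusted p = 0.00489). With median-of-ratios scaling it was -0.51 and no longer passed the threshold (adjusted p = 0.0607).

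The kinases of the pathway changed to a like degree. Mvk, which phosphorylates mevalonate, was at 14.1 ± 1.82 FPKM (SD, n = 4) in WT and 7.15 ± 0.618 FPKM in MG53-TG. Pmvk, which adds the second phosphate, was at 42.1 ± 3.88 and 22.5 ± 2.17 FPKM. Their log2 fold changes were -0.89 (adjusted p = 0.000597) and -0.88 (adjusted p = 0.000301). For Mvd, the decarboxylase that follows them, no expression value was analysed here, though its promoter window is among the 28 counted above.

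Idi1, which isomerises isopentenyl diphosphate to dimethylallyl diphosphate, had the highest WT level of the 32 members and the largest decrease of the sterol enzymes. It lies on chromosome 13 from 8885501 to 8892451. It was at 145, 153, 160 and 151 FPKM in WT samples and 56.2, 49.3, 55.3 and 53.7 in MG53-TG samples, a mean 2.84-fold lower. The spread within each group was small, the groups lay far apart, and the log2 fold change was -1.49 ± 0.08 (adjusted p = 3.33e-06). These values come from its 2 start events. Its end event held 0.158 to 0.252 FPKM in WT and 0.184 to 4.00 FPKM in MG53-TG samples, so it carried little of the signal and gave the opposite sign.

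Fdps, which condenses the isoprenoid units to farnesyl diphosphate, stood apart from its neighbours in the pathway. It was at 111, 119, 138 and 120 FPKM in WT and 94.7, 110, 118 and 85.2 in MG53-TG samples. The groups overlapped, and the log2 fold change of -0.27 (95% confidence interval -0.54 to 0.01) did not pass the threshold (adjusted p = 0.1). With quantile normalization it was -0.40 and did (adjusted p = 0.0272), and with median-of-ratios scaling it was -0.08 (adjusted p = 0.655). Of 24 events under the identifier of Fdps, 11 lay in the gene and on its strand, and the rest were left out. Gm43738, a protein-coding gene without a value here, overlaps Fdps on the same strand. Whether either bears on the smaller change was not tested.

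The steps from farnesyl diphosphate to lanosterol were lower by similar amounts. Fdft1, squalene synthase, fell from 42.7 ± 3.22 to 19.8 ± 1.43 FPKM. Sqle, the squalene epoxidase (chromosome 15, 59315077 to 59331192), was at 80.2, 80.5, 77.8 and 83.5 FPKM in WT and 37.4, 34.0, 36.6 and 36.7 in MG53-TG samples. Sqle thus had the tightest MG53-TG values of the sterol enzymes relative to its mean, with a coefficient of variation of 4.12%, and its log2 fold change was -1.13 ± 0.07 (adjusted p = 1.13e-05). Lss, lanosterol synthase, fell from 40.4 ± 3.46 to 18.3 ± 1.78 FPKM. Fdft1 overlaps Ctsb on the opposite strand, which rose from 92.4 to 193 FPKM on average. Whether the libraries kept strand is not given in the sources used here, and without strand the reads of such pairs cannot be told apart.

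Of the enzymes that remove the methyl groups of lanosterol, Cyp51, Msmo1 and Nsdhl were lower. Cyp51, the lanosterol demethylase, was at 92.0 ± 8.32 FPKM in WT and 48.4 ± 3.60 FPKM in MG53-TG. Nsdhl, a sterol dehydrogenase on chromosome X, was at 44.6 ± 4.03 and 19.5 ± 3.67 FPKM. Msmo1, the methylsterol monooxygenase (chromosome 8, 64718139 to 64733792), was at 105, 102, 109 and 108 FPKM in WT and 36.2, 36.4, 71.0 and 42.1 in MG53-TG samples. MG53-TG sample 3 stood well above the other 3 MG53-TG samples and below every WT sample, and the log2 fold change was -1.23 ± 0.20 (adjusted p = 0.00145).

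Hsd17b7, the reductase that acts with them, moved the other way by a small amount. It was at 13.1, 13.2, 12.5 and 13.3 FPKM in WT and 14.1, 14.3, 14.7 and 16.4 in MG53-TG samples. The MG53-TG samples all exceeded the WT samples, but the log2 fold change of 0.18 (95% confidence interval -0.03 to 0.38) did not pass the threshold (adjusted p = 0.135). It passed with median-of-ratios scaling, at 0.36 (adjusted p = 0.0317), and with quantile normalization, at 0.33 (adjusted p = 0.0275). Its promoter, printed above, held as many CCAAT boxes as GC boxes.

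At the end of the pathway the decreases were small or did not pass the threshold. Ebp, the sterol isomerase, fell from 26.2 ± 0.911 to 18.3 ± 1.98 FPKM, with a log2 fold change of -0.50 ± 0.10. Sc5d, the desaturase, was at 19.5 ± 1.84 and 18.4 ± 2.29 FPKM, with overlapping groups. Its log2 fold change of -0.08 (95% confidence interval -0.35 to 0.18) turned to 0.10 with median-of-ratios scaling and to 0.05 with quantile normalization. Dhcr7, the final reductase, was at 35.6, 32.1, 31.3 and 31.5 FPKM in WT and 24.0, 29.5, 28.3 and 28.9 in MG53-TG samples. The groups did not overlap, and the log2 fold change of -0.23 had an adjusted p of 0.0806. It was -0.05 with median-of-ratios scaling (adjusted p = 0.767) and -0.13 with quantile normalization (adjusted p = 0.301). Tm7sf2, a sterol reductase, had no event under its own identifier. Its events stood under that of its neighbour Zfpl1, and by exon boundaries it was at 9.34 to 24.5 FPKM in MG53-TG and 11.8 to 22.0 FPKM in WT samples, with a log2 fold change of -0.45 (adjusted p = 0.269).

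**Figure D2:**
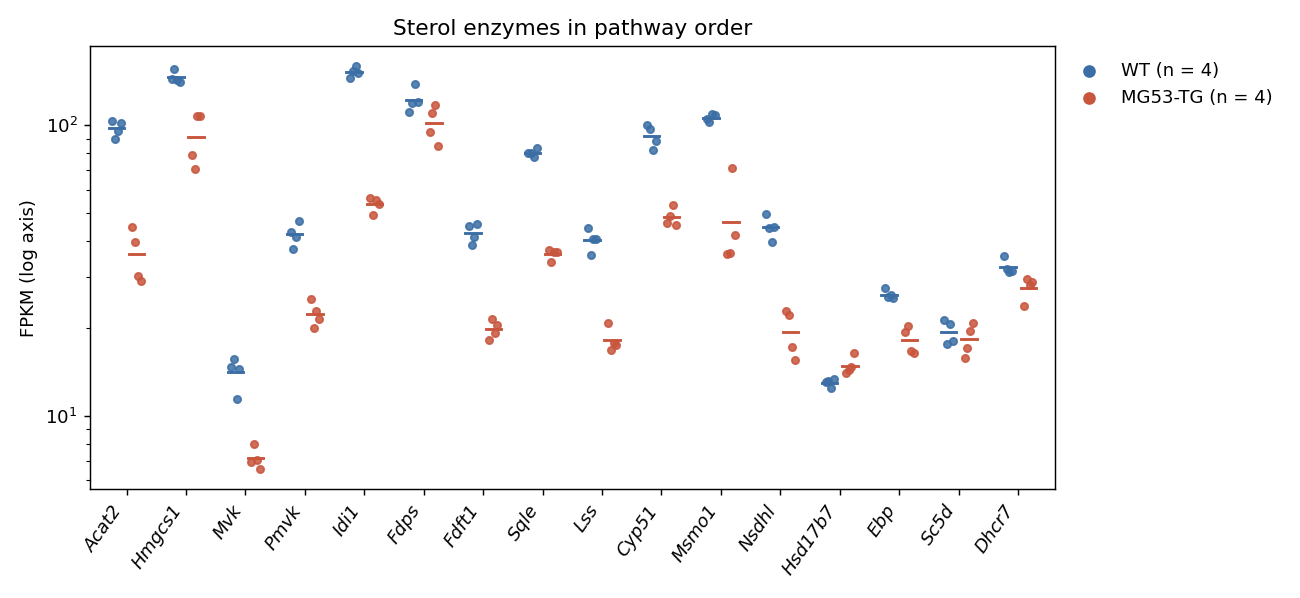
FPKM of the 16 sterol enzymes with a value, in the order of the pathway from left to right, on a log axis. Points are samples and bars are group means. Groups lie apart from Acat2 to Nsdhl except at Fdps, and come close together from Hsd17b7 to Dhcr7, where only Ebp passed the threshold.

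Of the regulators, Srebf2, Scap and Stard4 were lower, and Insig1 and Srebf1 did not pass the threshold. Srebf2, which encodes SREBP-2, the form best known for sterol genes, was at 38.8, 46.4, 38.6 and 53.6 FPKM in WT and 30.2, 24.4, 29.6 and 19.0 in MG53-TG samples. The groups did not overlap, and the log2 fold change was -0.77 ± 0.17 (adjusted p = 0.00682). Scap, the SREBP escort, fell from 10.4 ± 1.46 to 5.69 ± 1.44 FPKM, with a log2 fold change of -0.79 ± 0.17 (adjusted p = 0.00627). Stard4, a cytosolic sterol carrier, fell from 81.6 ± 3.48 to 51.5 ± 6.86 FPKM, with a log2 fold change of -0.66 ± 0.11 (adjusted p = 0.00145).

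Insig1, the SREBP retention protein, differed among the MG53-TG samples. It was at 127, 127, 127 and 114 FPKM in WT and 82.6, 75.1, 135 and 137 in MG53-TG samples 1 to 4. MG53-TG samples 1 and 2 were below every WT sample, and samples 3 and 4 were above every WT sample. The log2 fold change of -0.26 (95% confidence interval -0.71 to 0.20) did not pass the threshold (adjusted p = 0.323). Quantile normalization gave -0.41, and median-of-ratios scaling gave -0.07. Leaving out each sample in turn gave -0.39 to -0.11. The same MG53-TG samples 3 and 4 were also the higher ones for Hmgcs1 and Stard4.

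Srebf1, which encodes SREBP-1, the form best known for fatty acid genes, was at 24.4, 30.3, 6.73 and 17.3 FPKM in WT and 9.47, 17.6, 13.9 and 15.1 in MG53-TG samples. The WT samples had a wide spread, with sample 3 below every other sample, and the groups overlapped. The log2 fold change was -0.32 (95% confidence interval -1.23 to 0.60, adjusted p = 0.547). Without WT sample 3 it was -0.73 and passed the threshold (adjusted p = 0.0481), and without WT sample 2 it was -0.06 (adjusted p = 0.916). Its end events gave 0.13, and median-of-ratios scaling and quantile normalization gave -0.14 and -0.18.

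The tables list 3 start events of Srebf1 on chromosome 11, a start event being the first exon of an assembled transcript. The one at 60210336 to 60210465 was at 18.8, 18.9, 0.597 and 4.66 FPKM in WT and 5.80, 10.4, 5.43 and 6.94 in MG53-TG samples, so the spread of the gene came from this start. It held 54.5% of the start FPKM of the gene in WT and 51.0% in MG53-TG samples. The one at 60220453 to 60220604 was at 5.63 to 10.4 FPKM in WT and 3.67 to 8.42 FPKM in MG53-TG samples. The most upstream one, at 60222523 to 60222783, was at 2.69 and 2.23 FPKM in WT samples 2 and 4, with no entry in WT samples 1 and 3, which the fit left out as missing. Only sample 2 of the MG53-TG group listed it, at 1.44 FPKM, and the other MG53-TG samples, with no entry either, were set to 0. Its adjusted p of 0.0506 rests on this unlike treatment of absent entries between the groups. In the sum for the gene the absent WT entries added nothing. None of the 3 starts passed the threshold.

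Both enzymes that supply cytosolic acetyl-CoA were lower, and Acly had the largest decrease of the members tested when read from its end events. Acly, which cleaves citrate to cytosolic acetyl-CoA, lies on chromosome 11 from 100476353 to 100528000. It was at 99.8, 97.2, 96.6 and 96.0 FPKM in WT and 35.6, 35.4, 24.4 and 22.0 in MG53-TG samples, a mean 3.31-fold lower at end events. These WT values were within 4 FPKM of each other and far above all MG53-TG samples, and the log2 fold change was -1.73 ± 0.16 (adjusted p = 6.75e-05). Its 1 start event was at 26.7, 30.8, 30.6 and 15.2 FPKM in WT and 10.6, 10.3, 5.42 and 19.9 FPKM in MG53-TG samples 1 to 4. There the groups overlapped, since MG53-TG sample 4 was above WT sample 4, and Acly was a mean 2.24-fold lower. The log2 fold change at the start was -1.17 ± 0.37 (adjusted p = 0.0459), a smaller decrease than those of Idi1 and Fasn at -1.49. Acss2, which makes cytosolic acetyl-CoA from acetate, fell from 28.7 ± 2.26 to 15.7 ± 1.14 FPKM, which is a log2 fold change of -0.83 ± 0.10.

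Acaca and Fasn carry out the synthesis itself. Fasn, fatty acid synthase (chromosome 11, 120805846 to 120824547), was at 54.9, 52.4, 43.1 and 50.6 FPKM in WT and 20.4, 19.6, 15.2 and 14.1 in MG53-TG samples. The groups did not overlap, and the log2 fold change was -1.49 ± 0.14 (adjusted p = 7.43e-05). Acaca, acetyl-CoA carboxylase, was at 15.5, 9.47, 8.98 and 11.6 FPKM in WT and 11.3, 9.66, 3.77 and 4.13 in MG53-TG samples. MG53-TG samples 1 and 2 were within the WT range and samples 3 and 4 below it, and the log2 fold change of -0.69 (95% confidence interval -1.44 to 0.07) had an adjusted p of 0.123. Without MG53-TG sample 1 it was -0.93 and passed the threshold (adjusted p = 0.0425). These values come from its end events, and its start events gave -0.11 (adjusted p = 0.905).

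Among the elongases, Elovl5 and Elovl6 were lower and Elovl1 was not called. Elovl5, which elongates polyunsaturated fatty acids, was at 43.8, 47.3, 47.7 and 47.0 FPKM in WT and 22.5, 25.1, 13.4 and 13.1 in MG53-TG samples. All MG53-TG samples were below the WT samples, and samples 3 and 4 were the lowest, the reverse of the order at Hmgcs1 and Insig1. Its log2 fold change was -1.34 ± 0.21 (adjusted p = 0.00118). Elovl6, which elongates palmitate, fell from a mean of 26.4 to 17.2 FPKM, with a log2 fold change of -0.61 (adjusted p = 0.013) that did not pass with median-of-ratios scaling (-0.43, adjusted p = 0.0978). Elovl1, an elongase of very long chains, was at 19.3 ± 2.47 and 22.8 ± 7.13 FPKM, with a log2 fold change of 0.19 (95% confidence interval -0.26 to 0.64). MG53-TG sample 1 was at 32.7 FPKM and samples 2 to 4 at 23.2, 17.9 and 17.2 FPKM. The log2 fold change of Elovl1 ranged from 0.008 to 0.30 when each sample was left out. Elovl1 overlaps Cdc20 on the opposite strand, which was at 43.0 FPKM in WT and 19.2 FPKM in MG53-TG on average.

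The desaturases divided. Fads1 and Fads2, the front-end desaturases of polyunsaturated fatty acids, lie near each other on chromosome 19. Fads1 was at 72.8, 71.3, 62.5 and 47.6 FPKM in WT and 29.8, 26.1, 22.6 and 18.7 in MG53-TG samples. Fads2 was at 136, 127, 102 and 108 FPKM in WT and 64.4, 56.9, 47.6 and 42.8 in MG53-TG samples. In both genes the groups did not overlap, with log2 fold changes of -1.35 ± 0.18 (adjusted p = 0.000477) and -1.15 ± 0.15 (adjusted p = 0.000454). Scd1, which introduces the first double bond into saturated chains, was at 123, 113, 84.4 and 71.9 FPKM in WT and 116, 82.8, 129 and 70.5 in MG53-TG samples. Its groups overlapped widely, and the log2 fold change was 0.02, with a 95% confidence interval of -0.51 to 0.54, and -0.082 with quantile normalization.

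Scd2, a close copy of Scd1, was measured apart from the rule. Its events stood under the identifier of Mir5114, a microRNA gene within it, while the events under its own identifier were on the opposite strand. By exon boundaries, an assignment chosen after seeing the data, it was at 696, 669, 566 and 598 FPKM in WT and 267, 199, 299 and 302 in MG53-TG samples. The groups did not overlap, the WT mean of 632 FPKM was above that of every other member, and the log2 fold change was -1.26 ± 0.14 (adjusted p = 0.000211). With median-of-ratios scaling it was -1.07 (adjusted p = 0.00231). Reads of Scd1 and Scd2 could be split by the counting, so the values of both are uncertain to that extent.

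Me1, the cytosolic malic enzyme that supplies NADPH for fatty acid synthesis, was the exception of the list. It lies on chromosome 9 from 86581371 to 86695953. It was at 12.7, 12.5, 14.2 and 14.6 FPKM in WT and 30.5, 25.3, 47.4 and 40.7 in MG53-TG samples, a mean 2.66-fold higher. All MG53-TG samples exceeded the WT samples, with samples 3 and 4 the highest, and the log2 fold change was 1.31 ± 0.19 (adjusted p = 0.000717). It stayed past the threshold in all 20 alternatives run for it. Its promoter window, printed above, held 4 GC boxes and no CCAAT box.

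**Figure D3:**
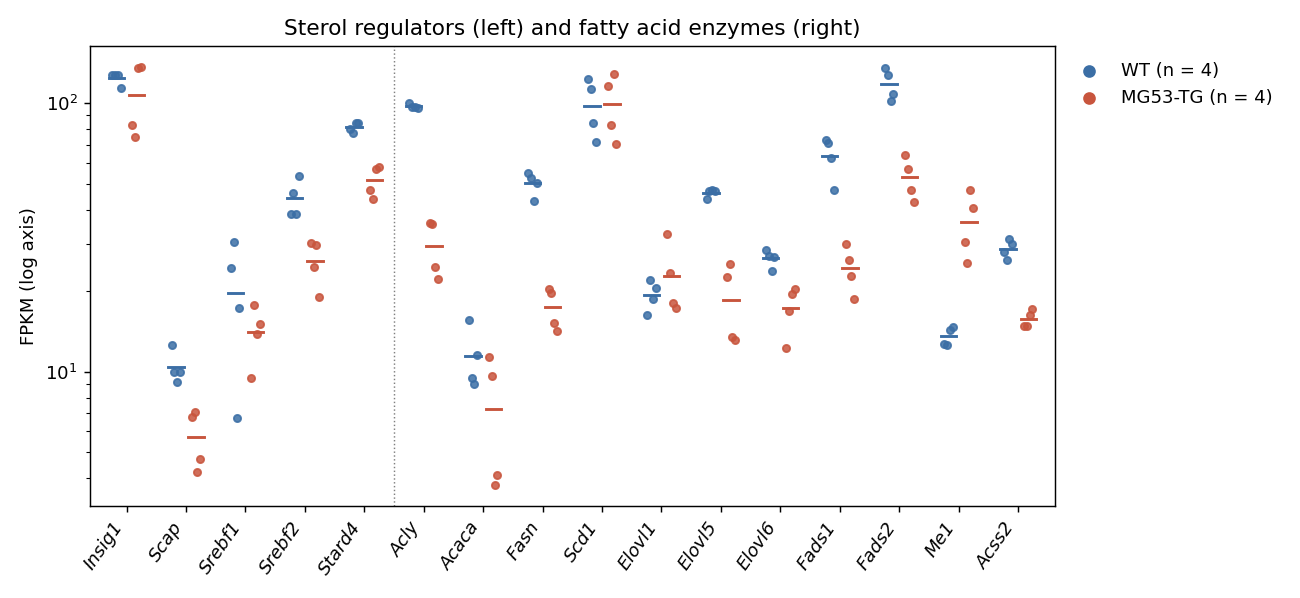
FPKM of the 5 sterol regulators (left of the dotted line) and the 11 fatty acid enzymes with a value, on a log axis. Points are samples and bars are group means. Me1 is the gene whose MG53-TG samples all lie above the WT samples, Scd1 and Elovl1 overlap, and Srebf1 has the widest WT spread on this axis, 6.73 to 30.3 FPKM.

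The branches fell by similar amounts on average. The mean log2(FPKM + 1) of the 16 sterol enzymes was 5.68 to 5.75 in the WT and 4.86 to 4.96 in the MG53-TG samples. That of the 11 fatty acid enzymes was 5.27 to 5.44 in WT and 4.43 to 4.85 in MG53-TG samples. The sterol mean thus varied little among the MG53-TG samples (SD 0.04), and the fatty acid mean varied more (SD 0.19), with samples 3 and 4 lowest at 4.57 and 4.43. The difference between the branch means, sterol minus fatty acid, was 0.30 to 0.43 in WT, and it was 0.04, 0.15, 0.39 and 0.44 in MG53-TG samples 1 to 4. MG53-TG samples 1 and 2 were below every WT sample in this difference, and samples 3 and 4 were within or just above the WT range, so the groups overlapped.

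**Figure D4:**
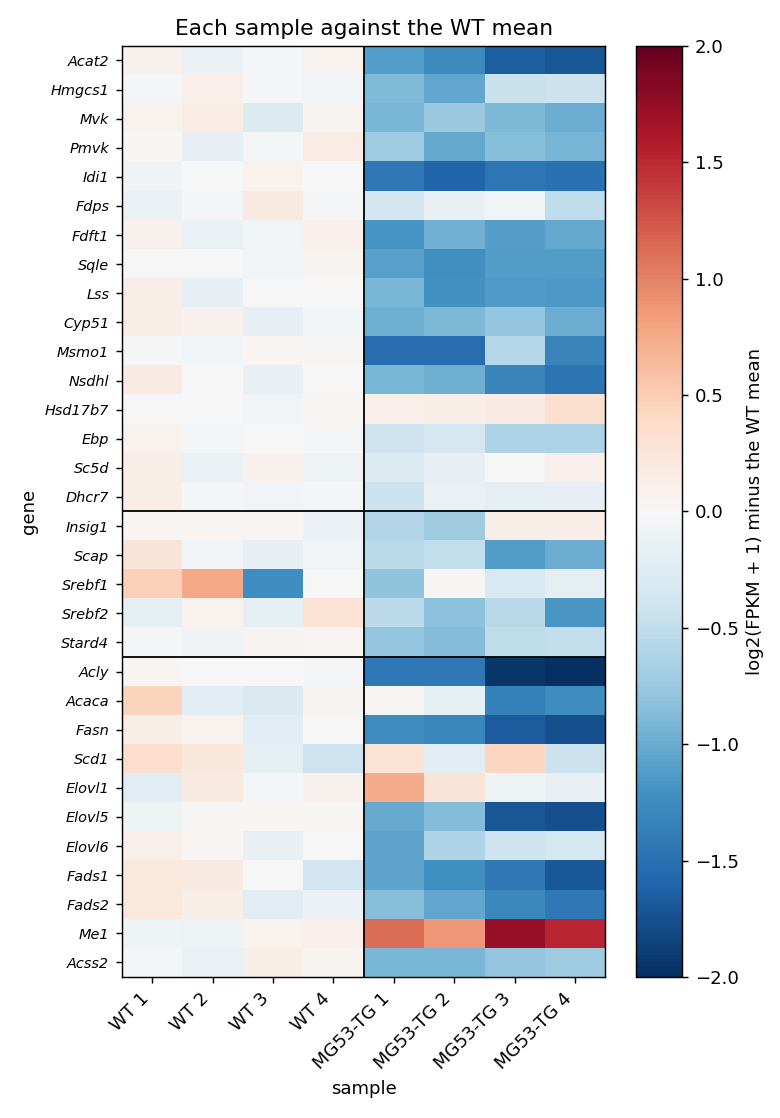
Log2(FPKM + 1) of each member in each sample minus the WT mean of that member, with blue below and red above the WT mean, and lines between the sterol enzymes, the regulators and the fatty acid enzymes and between the groups. Most rows are blue in all 4 MG53-TG samples. Me1 is red in all 4, and Insig1 is blue in samples 1 and 2 of the MG53-TG group and not in samples 3 and 4.

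Start events were also tested one by one, over 13939 start events of all genes. Of 43 start events of members tested, 24 were lower and 1, that of Me1, was higher, beside 18.7% of all start events that were lower and 10.8% that were higher. Msmo1 had a main start at 64733508 to 64733792 on chromosome 8 and a second at 64730772 to 64731059. The second start was at 8.01, 8.45, 7.65 and 6.62 FPKM in WT and 0.0952, 0.140, 5.73 and 0.103 in MG53-TG samples. It was close to 0 in 3 MG53-TG samples and near the WT level in sample 3, which was also the high sample of the gene as a whole, and its log2 fold change was -2.31 ± 0.57 (adjusted p = 0.0191).

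Start events of Lss, Elovl6 and Fdps also passed the threshold. The main start of Lss, at 76531607 to 76531674 on chromosome 10, held 86.7% of its start FPKM in WT and 83.9% in MG53-TG and had a log2 fold change of -1.14. A start far inside Lss, at 76551210 to 76552398, had one of -0.73. Elovl6 was lower at the start that ends at 129532495 on chromosome 3, with a log2 fold change of -0.61. In Fdps a minor start at 89095599 to 89095983 on chromosome 3 was lower, at 2.10 to 2.82 FPKM in WT and 0.715 to 1.31 FPKM in MG53-TG samples. The main start of Fdps had a log2 fold change of -0.25 (adjusted p = 0.145). In Dhcr7, singled out after its values were seen, WT sample 4 and MG53-TG sample 3 had 28.6 and 25.1 FPKM at a start at 143829626 to 143829739 on chromosome 7 that was at 0 in every other sample, and 1.28 and 1.25 FPKM at the main start. The other 6 samples had 16.5 to 33.5 FPKM there.

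**Figure D5:**
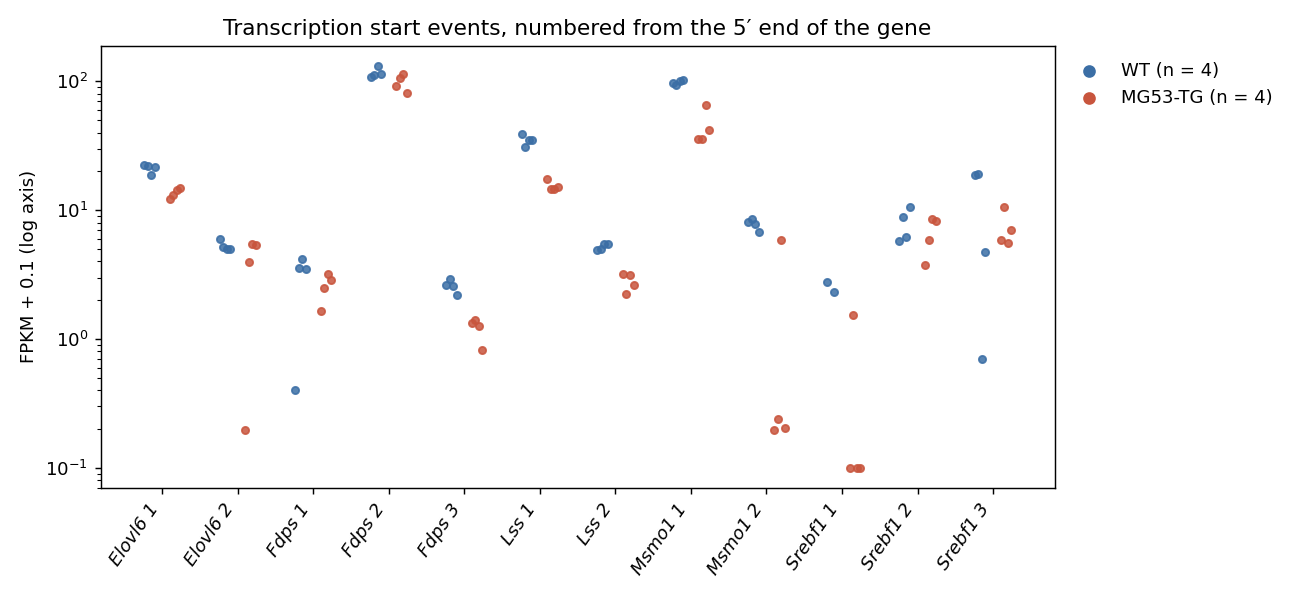
FPKM plus 0.1, on a log axis, of start events with a mean of at least 0.5 FPKM in 5 members, numbered from the 5′ end of the gene. Points are samples, and missing entries are not drawn. At Msmo1 2 the MG53-TG samples lie near the bottom except sample 3 at 5.73 FPKM, and Srebf1 3 shows the spread of the WT samples, 0.597 to 18.9 FPKM.

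Other genes of these pathways were lower or higher at shares nearer to those of all genes tested, 29.3% lower and 15.5% higher. Of 16 other genes of sterol and isoprenoid synthesis tested, 6 were lower and 3 higher, with a median log2 fold change of -0.34. Of 16 other fatty acid genes tested, 6 were lower and 3 higher, with a median of -0.31. Of 17 other regulators tested, 7 were lower and 2 higher, with a median of -0.36. These medians lay nearer to the median of all genes, -0.17, than those of the members did.

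Fads3 and Rnf145 were among the largest decreases of these lists. Fads3, a relative of Fads1 and Fads2, was at 6.25 to 7.71 FPKM in WT and 0.425 to 0.744 FPKM in MG53-TG samples. Rnf145, a ubiquitin ligase that takes part in sterol sensing, was at 13.6 to 17.6 FPKM in WT and 2.75 to 6.74 FPKM in MG53-TG samples. Their log2 fold changes were -2.33 and -1.59.

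On the log2(FPKM + 1) scale the largest increases were in Cyb5r3, Cyb5a and Nr1h2. Fads6, at 0 in all WT samples and at 1.04 to 1.41 FPKM in MG53-TG samples, was also higher, with a log2 fold change of 1.11 on this scale that depends on the pseudocount. Cyb5r3 and Cyb5a make up an electron transfer chain that serves sterol and fatty acid desaturases. Cyb5r3 was at 47.0, 44.8, 48.2 and 44.9 FPKM in WT and 107, 115, 214 and 232 in MG53-TG samples, a log2 fold change of 1.75. Cyb5a was at 158, 166, 167 and 156 FPKM in WT and 383, 410, 696 and 779 in MG53-TG samples, a log2 fold change of 1.74. In both, all MG53-TG samples were above the WT samples and samples 3 and 4 were the highest, as for Me1. Nr1h2, which encodes the sterol receptor LXR beta, was at 2.17 to 4.64 FPKM in WT and 5.40 to 17.9 FPKM in MG53-TG samples, a log2 fold change of 1.18 (adjusted p = 0.0233).

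Markers of cell types moved with the groups as well. The 8 epithelial markers summed to 2061 to 2374 FPKM in WT and 1702 to 2202 FPKM in MG53-TG samples. Of these 5 were lower and 1 was higher, with a median log2 fold change of -0.43. All 10 enterocyte markers were higher, with a sum of 939 to 1118 FPKM in WT and 11880 to 12950 FPKM in MG53-TG samples. Of 8 stem cell markers 7 were lower, with a sum of 574 to 771 FPKM in WT and 325, 337, 104 and 66.5 FPKM in MG53-TG samples 1 to 4. Of 10 proliferation genes 8 were lower, with sums of 527 to 584 FPKM and of 400, 416, 201 and 145 FPKM. MG53-TG samples 3 and 4 were thus the lowest in these lists, as they were for Elovl5 and Fasn and for the end events of Acly. All 6 Paneth markers and 4 of 6 goblet markers with a value were lower, and 4 of 7 enteroendocrine markers were higher. The tuft markers summed to at most 1.73 FPKM, with Dclk1 and Il25 without an entry. The mesenchyme markers summed to 0 in WT and at most 4.63 FPKM in MG53-TG, and the immune markers to at most 9.24 FPKM, with Ptprc, Cd3e and Lyz2 at or near 0. Both mesenchyme markers tested were higher, and the 1 immune marker tested, Cd68, was lower. The adipocyte markers summed to 8.95 to 13.7 FPKM in WT and 12.2 to 16.3 FPKM in MG53-TG. The part of cell composition in the decreases of the synthesis genes was not tested, and in bulk samples fewer cells of a type and less RNA per cell cannot be told apart.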

How the data were processed

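RNA of 4 WT and 4 MG53-TG intestinal organoid samples was sequenced on an Illumina platform. The submitters' processing notes name cutadapt 1.9.1, HISAT2 2.0.1, HTSeq 0.6.1, DESeq2 and the build mm10. The tool that made the event tables is not given in the sources used here. The authors deposited FPKM values per transcript event, and these do not resolve into whole reads. Of 268 member start, end and splice events lying in the gene of their identifier, 266 matched an exon boundary of GENCODE M21 (GRCm38). Entries absent from a sample were missing where the median of its other group members reached 0.5 FPKM, and 0 elsewhere.

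Values were tested as log2(FPKM + 1) with limma 3.58.1 in R 4.3.3, with a mean-variance trend, for genes averaging 0.5 FPKM or more. The fit was also tested on simulated data of 10028 genes. Of 200 genes given a log2 fold change of 1 in either direction, 62.0% were recovered, and 11 unchanged genes were called. With no gene changed, 0 were called. Members that did not pass the threshold may thus have changes that the fit missed. Single members were compared by exact permutation. Python 3.11.15, numpy, pandas and matplotlib were used for the rest. The members and lists were chosen with earlier results of these data known. Named were all members, the 3 largest rises and falls past the threshold in the other pathway lists, start events past the threshold in members with at least 2 starts, all starts of Srebf1, and Trim72. A gene that this rule names is not reported here. The alternatives changed the pseudocount (0.1), the filter (none, or 2 FPKM), the scaling (median-of-ratios, quantile), the block (replicate number), the sample weights, the events used and the absent entries (as 0), or left out 1 sample.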

Additional observations from a re-analysis of the deposited data

Results flagged for a closer look

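Among 64 groups of 4 values (32 members in WT and in MG53-TG), 2 held a sample far from the other 3, where the gap to the nearest sample, as a share of the range, was above Dixon's 95% critical value. Chance alone gives this in about 1 in 20 groups, or 3.2 of 64. Msmo1 was at 71.04 FPKM in MG53-TG sample 3, above the other MG53-TG samples. Insig1 was at 114.3 FPKM in WT sample 4, below the other WT samples.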

How the results depend on the processing

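Of 633 alternative values for the 32 members, 616 kept the direction and the side of the threshold, and 20 of the 23 called members kept both in every alternative run. The exceptions among called members were Hmgcs1 and Elovl6, given above, and Idi1, which reversed to 0.91 (adjusted p = 0.149) with end events only, where it was nearly absent. Under both other scalings 2 members, not 1, were higher. With median-of-ratios scaling the medians were -0.72 (sterol enzymes), -0.47 (regulators) and -0.65 (fatty acid enzymes), and calls over all genes were 2098 higher and 2128 lower (49.6% higher) against 1601 and 3031 (34.6%). With quantile normalization they were 1959 and 2429 (44.6% higher). With end events only 17 members were lower against 22, the fewest in any alternative run, and of the sterol enzymes 9 against 12. These counts cover fewer members. Of those lower in the main fit, Pmvk and Fads1 had no end event, and Cyp51 and Srebf2 fell below the filter there. Idi1 was tested and not called. With end events only the medians, also over fewer members, were -0.72 for sterol enzymes and -0.46 for regulators. Other pathway genes lower were then 11 against 19. With pseudocount 0.1 the sterol median was -0.94, and with events assigned by exon boundaries, which added Scd2, the fatty acid median was -0.99. Leaving out MG53-TG samples 3 and 4, added after seeing the data like the exon boundaries, gave medians of -0.94, -0.65 and -0.91, and leaving out samples 1 and 2 gave -0.92, -0.50 and -1.30 (in the same order). Leaving out each sample in turn gave medians of -0.97 to -0.87 (sterol enzymes), -0.73 to -0.59 (regulators) and -0.93 to -0.79 (fatty acid enzymes). Members lower were then 22 to 23. Sc5d reversed to 0.10 with median-of-ratios scaling and to 0.046 with quantile normalization, and Srebf1 to 0.13 with end events only. Scd1, at 0.02, reversed to -0.082 with quantile normalization, to -0.033 with start events only, and ranged from -0.12 to 0.17 when each sample was left out. Apart from the smaller number of members tested with end events only, the cause of these changes was not tested. Same-numbered samples did not deviate together (correlations -0.05 to 0.09), and no sample matched its own number best. With the replicate block 22 members were lower and 1 higher, with 2752 genes lower and 1464 higher in all. FPKM hold no read counts, so the precision that depth gives low members such as Mvk, Scap and Acaca is unknown.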
